A study of Mus musculus with 6 samples.

Results

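The 40 interferon-stimulated genes described here were followed through a mouse colitis experiment in which montmorillonite, a clay mineral used as an adsorbent in diarrhoea, was given with the injurious agent. They were chosen by symbol, through their Ensembl identifiers in GENCODE mouse annotation, and all 40 were found among the 20533 genes measured. Every library came from the distal colon of 7-week-old male C57BL/6 mice of wild type genotype, taken on day 7. The first group drank water, the second received 2% DSS (dextran sulphate sodium, which damages the colonic epithelium), and the third received 2% DSS together with montmorillonite powder, at a dose that the labels do not state. Each of the 3 groups held 2 libraries, made from Trizol-extracted total RNA, and none of the groups analysed here received montmorillonite alone. Whether a group's 2 libraries stand for different mice is not stated, so the p-values below measure only the spread between these libraries, which may be technical.

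Interferons are secreted proteins that switch on a shared but not identical set of genes. Type I interferons, and the related type III interferons made by epithelia, act mainly through a complex containing Stat2 and Irf9 that binds a DNA element called the interferon-stimulated response element (ISRE); the Ifit and Oas families are typical targets. Interferon gamma, the type II interferon made by T and NK cells, acts through DNA elements called gamma-activated sites (GAS) and through the factor Irf1 that it induces; the guanylate-binding proteins (Gbp) and immunity-related GTPases (Irgm and relatives) are typical targets. In the gut these proteins limit viruses and intracellular microbes, and many of the genes are active without any infection. The division into type I leaning and gamma leaning genes is a matter of degree, since most members answer to both kinds of interferon.

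The starts of 30 of the 40 members were covered by RefSeq promoter windows (build GRCm38.p6, 250 bases before to 50 after a start). An ISRE core, searched on both strands as GAAA, any 2 bases and GAAA, was found in 20 of these 30 (66.7%), against 3.99% of the 27025 genes with a window. A GAS core, searched as TTCNNNGAA, which reads the same on both strands, was found in 10 (33.3%), against 9.55% of all genes with a window. Among the gamma leaning members in the wider sense used below, 11 of 14 windows held the ISRE core and 7 of 14 the GAS core; among the type I leaning members the counts were 9 of 16 and 3 of 16. The cores overlapped in Bst2. A match describes the letters and is not evidence of binding.

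The stretches just upstream of 3 starts show how such cores lie, with the cores in capitals. Isg15 (chr4:156200819-156200968, minus strand) carried overlapping ISRE cores in tandem, Ifit1 (chr19:34640739-34640888, plus strand) carried 2 separate ISRE cores in the reverse orientation, and Irf1 (chr11:53769864-53770013, plus strand) carried a GAS core and no ISRE core. The 3 sequences are RefSeq GRCm38.p6, 5′ to 3′ along the gene.
Isg15: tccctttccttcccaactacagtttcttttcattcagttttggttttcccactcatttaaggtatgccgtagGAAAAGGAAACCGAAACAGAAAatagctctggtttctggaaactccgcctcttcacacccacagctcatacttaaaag
Ifit1: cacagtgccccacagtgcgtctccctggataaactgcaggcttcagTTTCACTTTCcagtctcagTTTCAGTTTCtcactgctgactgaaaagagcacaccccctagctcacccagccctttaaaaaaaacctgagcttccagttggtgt
Irf1: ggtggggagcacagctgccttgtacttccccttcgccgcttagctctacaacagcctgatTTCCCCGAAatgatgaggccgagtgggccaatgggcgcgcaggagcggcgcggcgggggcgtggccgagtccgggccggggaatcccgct

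The gamma leaning GTPases shown next were picked by hand from those with a promoter window, and Iigp1 had none. Gbp2 (chr3:142620513-142620631, plus strand) had a single ISRE core. In Igtp (chr11:58199406-58199555, plus strand), Irgm2 (chr11:58214827-58214976, plus strand), Tgtp1 (chr11:48992247-48992396, minus strand) and Tgtp2 (chr11:49064213-49064362, minus strand) a GAS core stood 2 bases before an ISRE core in the same orientation. That joint arrangement, searched on both strands, was found in 5 of the 27025 genes with a window (0.0185%): these 4 members and their relative Gm12185. It was noticed after the expression values had been seen. These genes are related copies, so their shared letters are not independent.
Gbp2: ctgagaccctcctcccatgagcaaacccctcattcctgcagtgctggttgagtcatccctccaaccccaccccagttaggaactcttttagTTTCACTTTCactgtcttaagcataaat
Igtp: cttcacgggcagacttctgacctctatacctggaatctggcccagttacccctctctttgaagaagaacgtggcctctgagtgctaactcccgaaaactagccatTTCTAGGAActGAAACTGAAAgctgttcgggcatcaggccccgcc
Irgm2: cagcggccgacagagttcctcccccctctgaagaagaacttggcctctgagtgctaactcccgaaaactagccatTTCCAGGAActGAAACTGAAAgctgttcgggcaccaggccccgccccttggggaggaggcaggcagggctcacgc
Tgtp1: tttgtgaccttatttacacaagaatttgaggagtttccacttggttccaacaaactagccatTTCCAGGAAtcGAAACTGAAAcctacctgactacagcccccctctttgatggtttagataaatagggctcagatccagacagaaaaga
Tgtp2: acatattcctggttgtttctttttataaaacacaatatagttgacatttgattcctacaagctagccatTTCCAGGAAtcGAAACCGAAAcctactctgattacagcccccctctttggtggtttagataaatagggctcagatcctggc

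**Figure D1:**
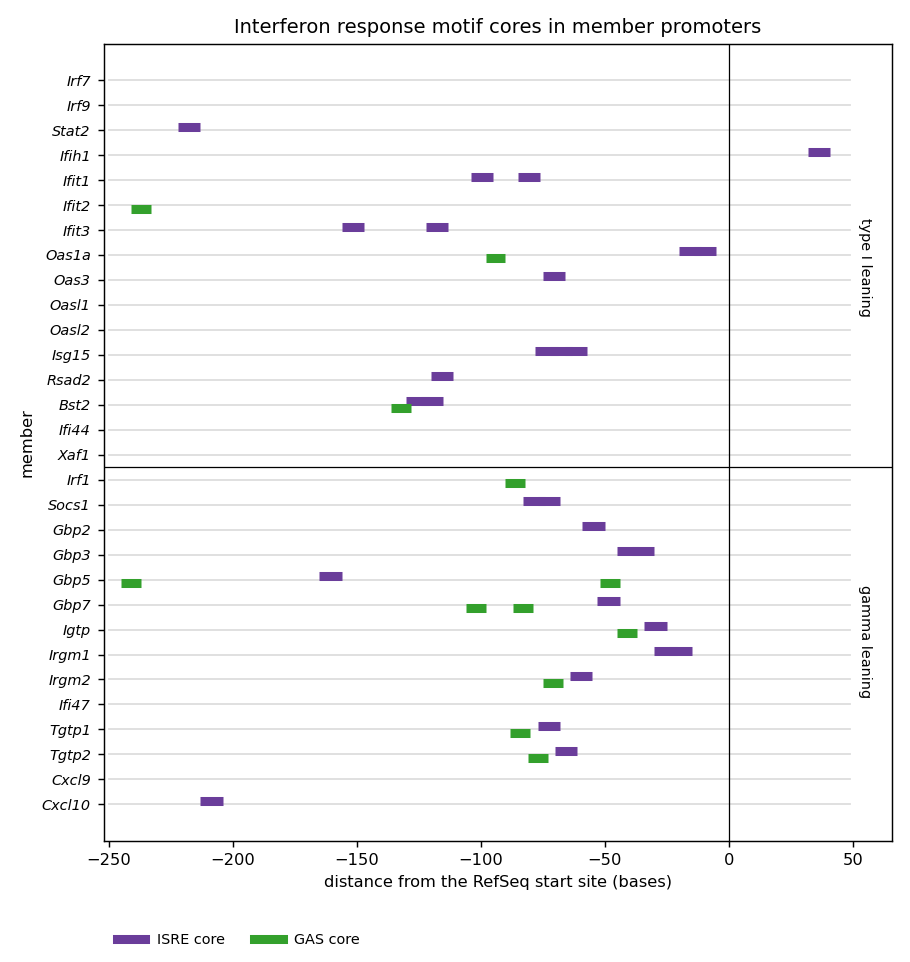
Positions of the ISRE core (purple) and the GAS core (green) in the promoter windows of the 30 members that had one; the horizontal axis is the distance in bases from the RefSeq start site and each line is a member, type I leaning above and gamma leaning below. An ISRE core was present in 20 members and a GAS core in 10, with both in 8.

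All levels below are the deposited normalised read counts, that is, reads scaled by a library's size factor. The recovered whole reads summed to between 3741494 (water 2) and 21481594 (DSS 1), so 1 read was worth from 2.27 down to 0.335. Even so the members were well covered: the fewest reads of any member in a library were 16. The libraries of a group were not alike. Markers of neutrophils, which enter the inflamed colon, stood at a median of 6.33 and 7.48 log2 above the water mean in DSS 1 and 2 but at 1.81 and 6.66 in DSS plus montmorillonite 1 and 2. Keratins and other markers of stratified squamous epithelium, which is not the lining of the distal colon, summed to 41243 in DSS 2, to 7994 in replicate 2 of DSS plus montmorillonite, and to between 56 and 507 in the other 4 libraries. The defining markers of colonic epithelium (Epcam, Krt8, Cdx2 among 10) were above 0 in every library, but their amounts differed. They summed to 185778 and 193247 in water, 78131 and 52407 with DSS and 206033 and 111167 with DSS plus montmorillonite.

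With DSS, the members that passed the test described next were lower than in water, and they were gamma leaning. Of the 40 members, 7 fell and none rose: the transcription factor Irf1, the GTPases Gbp2, Iigp1, Igtp, Irgm2 and Tgtp1, and the chemokine Cxcl9, by 2.11-fold to 6.31-fold (limma on log2(value + 1), Benjamini-Hochberg adjusted p below 0.05 over 20307 genes). In GRCm38, 6 of these protein-coding genes lie at chr11:53770014-53778374 (Irf1), chr3:142620602-142638008 (Gbp2), chr11:58199556-58207591 (Igtp), chr11:58199618-58222782 (Irgm2), chr11:48985327-48994172 (Tgtp1) and chr5:92321347-92328079 (Cxcl9). Over all genes tested 7.18% fell and 7.9% rose. An unadjusted limma p below 0.05 was reached by 15 members, and by 6578 of the 20307 genes. None of the Ifit, Oas or other type I leaning members passed in this fit. In 19 members both DSS libraries lay below both water libraries and in 2, Mx2 and Gbp5, above them, where the shares over all genes were 28.5% and 33.9%. The median log2 fold change of the members was -0.59, beside 0.10 over all genes tested. The calls rest on the design: limma called 0 of the 7 with all 6 libraries in a single fit or with any of the 4 libraries left out, although none changed direction. On all 6 libraries edgeR also called 0, while DESeq2 called 6 of the 7. The smallest adjusted p of a member was 0.141 in limma's fit of 6 libraries, 0.0571 and 0.0567 without water 1 and 2, and 0.0557 and 0.0761 without DSS 1 and 2.

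With DSS plus montmorillonite against water, no member passed (0 of 40, background 0.0% in either direction, limma). An unadjusted limma p below 0.05 was reached by 9 members, and by 1576 of the 20307 genes. EdgeR also called 0 members while DESeq2 called 5 lower, where it called 87 of all genes higher and 113 lower. Both libraries lay below both water libraries in 16 members and above them in 1, Gbp5, where all genes gave 19.2% and 21.5%. The median log2 fold change was -0.70, beside 0.06 over all genes. Between DSS plus montmorillonite and DSS alone no member passed either (background 0.0%), and edgeR and DESeq2 also called 0. There 0 members had an unadjusted limma p below 0.05, beside 1444 of the 20307 genes. There the groups did not overlap in 3 members, Irf1 and Cxcl9 (higher with montmorillonite) and Tgtp2 (lower), where all genes gave 19.4% higher and 20.6% lower. The median was -0.11, beside -0.07 over all genes. Both comparisons with water share the water libraries, and both comparisons of DSS plus montmorillonite share its libraries.

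**Figure D2:**
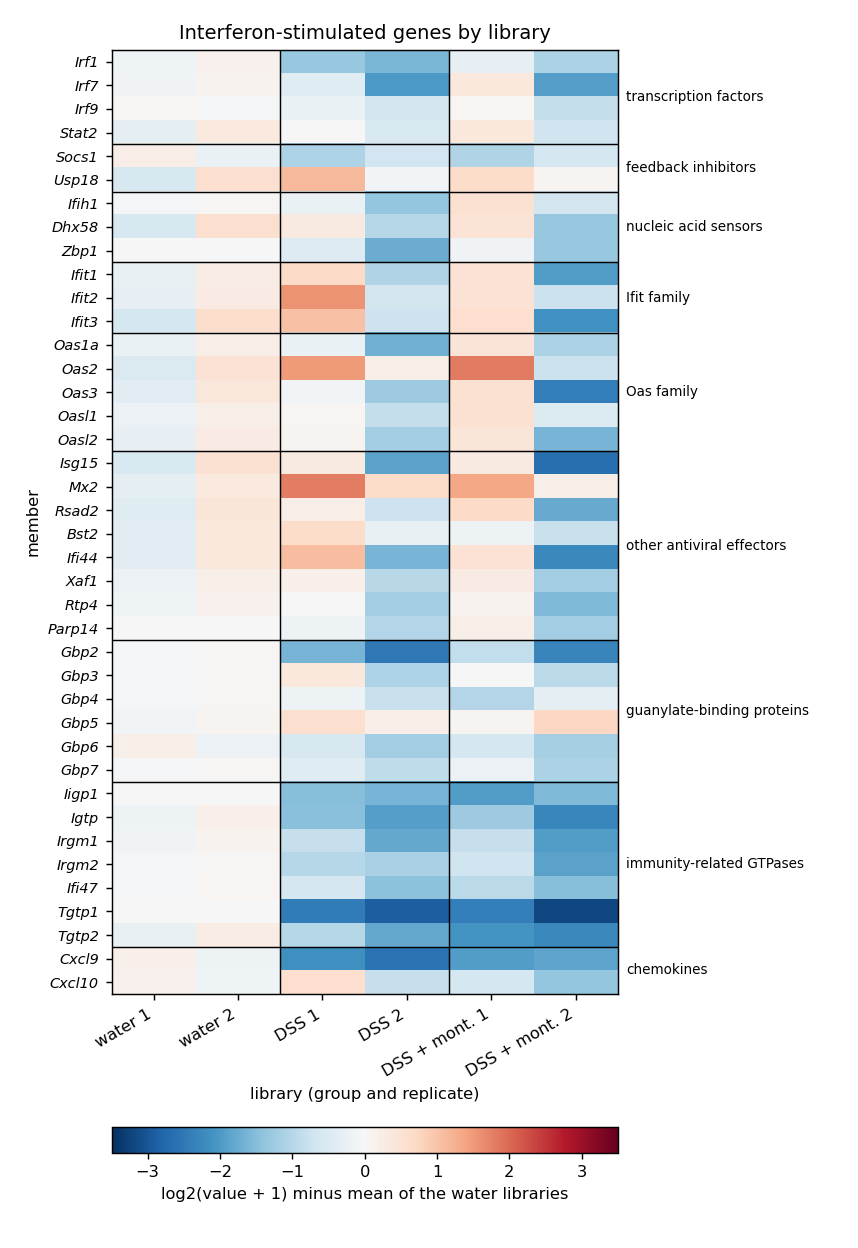
Heat map of the 40 members (rows, grouped by role) in the 6 libraries (columns); colour is log2(value + 1) minus the mean of the water libraries, blue lower and red higher. The immunity-related GTPases, Gbp2 and Cxcl9 are blue in all 4 libraries that received DSS, whereas many type I leaning members are near or above water in replicate 1 and below it in replicate 2 of both DSS groups.

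Among the transcription factors, Irf1, which interferon gamma induces and which itself drives many gamma targets, fell with DSS. Its levels were 3023 and 3718 in water, 1341 and 1107 with DSS and 2730 and 1555 with DSS plus montmorillonite. The log2 fold change with DSS was -1.46 ± 0.19 (SE, n = 2 libraries a group), a 2.75-fold decrease (limma, adjusted p = 0.0108). The DSS plus montmorillonite libraries lay between the other groups without overlapping either, at -0.70 ± 0.33 against water (adjusted p = 0.65) and 0.76 ± 0.36 against DSS (adjusted p = 0.702). Irf7, the factor that amplifies type I interferon production, read 2436 and 2847 in water, 1957 and 654 with DSS and 3390 and 690 with DSS plus montmorillonite. Replicate 1 of each DSS group was thus near or above water and replicate 2 far below it, and the change with DSS, -1.22 ± 0.49, did not pass (adjusted p = 0.149). Irf9 and Stat2, parts of the complex that binds the ISRE, ranged from 483 to 916 and from 571 to 1201 over all libraries. Their log2 fold changes with DSS were -0.43 ± 0.20 and -0.27 ± 0.30, and neither passed.

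The feedback inhibitors did not pass. Socs1, which blocks the receptor-bound Jak kinases, read 153 and 109 in water, 60.0 and 80.5 with DSS and 61.8 and 83.6 with DSS plus montmorillonite. All 4 DSS-treated libraries lay below both water libraries (-0.88 ± 0.32 with DSS, adjusted p = 0.122). It was the 1 member whose replicate 2 was the higher in DSS. Usp18, which removes Isg15 from proteins and damps the type I receptor, read 120 and 262 in water, 392 and 166 with DSS and 275 and 189 with DSS plus montmorillonite, with all 3 groups overlapping.

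The nucleic acid sensors were lower in replicate 2 than in replicate 1 of both DSS groups. Ifih1 (Mda5), a sensor of long double-stranded RNA, read 1281 and 1380 in water, 1141 and 515 with DSS and 1939 and 854 with DSS plus montmorillonite. Zbp1, a sensor of Z-form nucleic acid that can start necroptosis, read 1805 and 1874 in water, 1356 and 554 with DSS and 1689 and 732 with DSS plus montmorillonite. The log2 fold changes with DSS were -0.79 ± 0.37 for Ifih1 and -1.08 ± 0.40 for Zbp1, with DSS below water in both and adjusted p of 0.199 and 0.129. Dhx58 (Lgp2), a regulator of that sensing, ranged from 118 to 441 and its groups overlapped.

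The Ifit proteins bind foreign RNA and block its translation. Ifit1 read 872 and 1251 in water, 1669 and 500 with DSS and 1487 and 267 with DSS plus montmorillonite. Ifit2 read 456 and 691 in water, 1677 and 361 with DSS and 800 and 332 with DSS plus montmorillonite. In each DSS group replicate 1 was above both water libraries and replicate 2 below both, so each group mean lay between unlike libraries. Ifit3, 51.2% of whose 50-base stretches also occur in Ifit3b, read 155 and 366 in water, 482 and 145 with DSS and 357 and 54.5 with DSS plus montmorillonite, and how its reads were divided from those of its copy is not known. The log2 fold changes with DSS were -0.19 ± 0.55, 0.47 ± 0.68 and 0.15 ± 0.65 for the 3 genes. None passed, and the 95% intervals were wide, from -1.54 to 1.15 for Ifit1 and from -1.21 to 2.15 for Ifit2.

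The Oas proteins make the second messenger that activates RNase L, and the Oasl proteins are related regulators. Oas2 read 272 and 544 in water, 1086 and 444 with DSS and 1352 and 227 with DSS plus montmorillonite. Oas3 read 663 and 1142 in water, 809 and 360 with DSS and 1266 and 162 with DSS plus montmorillonite. Oasl2, the family member with the highest values, read 1946 and 2916 in water, 2552 and 1053 with DSS and 3189 and 770 with DSS plus montmorillonite. In all 5 members of this family DSS plus montmorillonite 1 was above both water libraries and DSS plus montmorillonite 2 below both. Oas1a, 57.6% of whose 50-base stretches occur in Oas1g, ranged from 240 to 1076, and Oasl1 from 380 to 975. With DSS the 5 log2 fold changes ran from -0.97 ± 0.47 (Oas1a) to 0.85 ± 0.50 (Oas2) and none passed.

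Of the other antiviral effectors, Isg15, the ubiquitin-like modifier, read 475 and 985 in water, 859 and 186 with DSS and 851 and 109 with DSS plus montmorillonite. Its change with DSS was -0.77 ± 0.73 (adjusted p = 0.508), and the water libraries themselves were further apart than that change. Ifi44 had the widest gap between the DSS libraries of any member, with 539 and 82.5 beside 197 and 334 in water, and read 364 and 52.7 with DSS plus montmorillonite. Rsad2 (viperin), which makes a chain-terminating nucleotide, read 235 and 425 in water, 369 and 192 with DSS and 499 and 92.7 with DSS plus montmorillonite. Mx2 belongs to the dynamin-like GTPases, and its annotated biotype is polymorphic pseudogene. It was the member with the lowest level: 22.1 and 36.4 in water, 101 and 45.1 with DSS and 73.4 and 32.7 with DSS plus montmorillonite. Both DSS libraries lay above water (1.22 ± 0.52), and the change did not pass (adjusted p = 0.172). Its relative Mx1, no member, had the same order of libraries within each DSS group, at 99.8 and 118, 334 and 123, and 286 and 76.3 (0.89 ± 0.48 with DSS, adjusted p = 0.259). Bst2 (tetherin), which holds budding virions on the cell, ranged from 173 to 461, Xaf1, a promoter of apoptosis, from 160 to 452, Rtp4 from 213 to 687 and Parp14, an ADP-ribosyltransferase, from 819 to 2192. None of these 4 passed, and Parp14 alone had both DSS libraries below both water libraries. Of the stretches of Rtp4, 11.6% occur in the overlapping gene Gm45338.

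**Figure D3:**
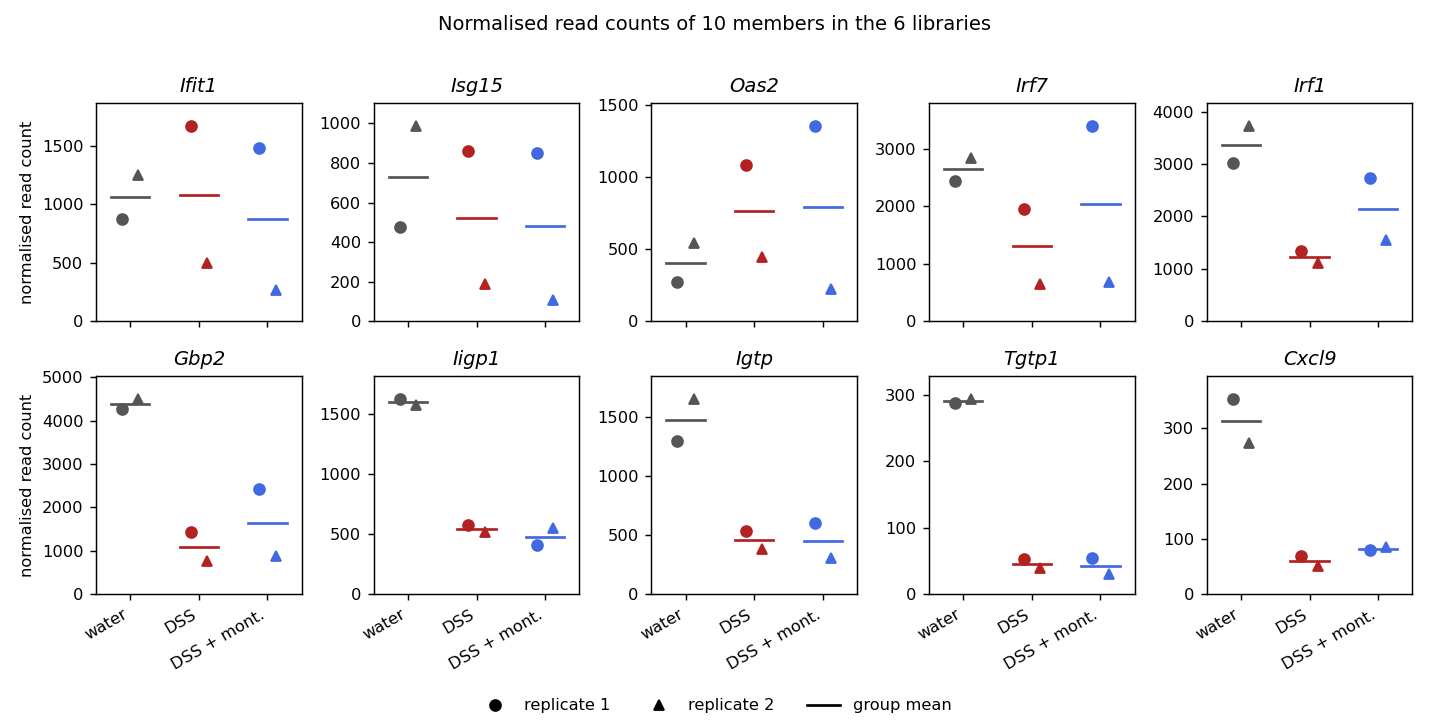
Normalised read counts (vertical axis, from 0, scaled per gene) of 10 members in the 6 libraries; circles are replicate 1, triangles replicate 2 and horizontal lines the means of 2 libraries. Ifit1, Isg15, Oas2 and Irf7 have a high and a low library in each DSS group, whereas Gbp2, Iigp1, Igtp, Tgtp1 and Cxcl9 lie below both water libraries in all 4 libraries that received DSS.

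The guanylate-binding proteins, which coat and break open microbe-containing vacuoles, differed among themselves. Gbp2, the member with the highest level per kilobase of exon in water (1740, ahead of Isg15 at 966 and Irf1 at 848), read 4261 and 4494 in water, 1425 and 766 with DSS and 2422 and 885 with DSS plus montmorillonite. It fell 4.19-fold with DSS (-2.07 ± 0.30, adjusted p = 0.0134), and its value against water with montmorillonite was -1.58 ± 0.51 (adjusted p = 0.629). Gbp7 read 721 and 757 in water, 553 and 399 with DSS and 643 and 343 with DSS plus montmorillonite; both groups lay below water, and the change with DSS, -0.65 ± 0.21, did not pass (adjusted p = 0.0942). Gbp4 (533 and 569 in water, 485 and 319 with DSS, 272 and 434 with DSS plus montmorillonite) and Gbp6 (131 and 100, 77.1 and 48.4, 74.8 and 50.9) were likewise below water without overlap and did not pass. Gbp6 shares 70.7% of its stretches with other genes, mainly Gm43302, and Gbp7 shares 12.7%, so their counts are uncertain. Gbp3 had 1 DSS library above and 1 below water, with 628 and 673 in water, 834 and 307 with DSS and 647 and 338 with DSS plus montmorillonite. Gbp5, which promotes inflammasome assembly, read 274 and 309 in water, 427 and 343 with DSS and 314 and 485 with DSS plus montmorillonite. Its 4 DSS-treated libraries were all above water, with log2 fold changes of 0.39 ± 0.21 and 0.42 ± 0.29 that did not pass (adjusted p = 0.25 and 0.691).

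The 7 immunity-related GTPases, which act on the membranes of vacuoles and in autophagy, were below water in every DSS-treated library, and 4 of them fell with DSS. Iigp1 read 1623 and 1576 in water, 573 and 518 with DSS and 410 and 549 with DSS plus montmorillonite. The replicates of each group were close and the groups far apart, with -1.55 ± 0.16 for DSS (2.93-fold lower, adjusted p = 0.007) and -1.75 ± 0.22 for DSS plus montmorillonite (adjusted p = 0.629). Tgtp1 had the largest change of any member: 288 and 293 in water, 52.6 and 38.8 with DSS and 54.7 and 30.9 with DSS plus montmorillonite, or -2.66 ± 0.28 (6.31-fold lower, adjusted p = 0.00702) and -2.79 ± 0.38 (adjusted p = 0.629). Its near copy Tgtp2 read 141 and 200 in water, 83.8 and 47.5 with DSS and 38.8 and 34.5 with DSS plus montmorillonite, with -1.40 ± 0.38 (adjusted p = 0.0597) and -2.17 ± 0.36 (adjusted p = 0.629). Of 50-base stretches, 86.6% of those in Tgtp2 and 81.2% of those in Tgtp1 occur in another gene, mostly in each other, so the division of reads between the pair is uncertain.

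Igtp (Irgm3) read 1302 and 1653 in water, 533 and 387 with DSS and 606 and 303 with DSS plus montmorillonite, a 3.23-fold decrease with DSS (-1.69 ± 0.23, adjusted p = 0.0114). Irgm2, whose annotated exons overlap those of Igtp by 162 bases, read 1393 and 1492 in water, 715 and 654 with DSS and 893 and 391 with DSS plus montmorillonite, a 2.11-fold decrease with DSS (-1.07 ± 0.16, adjusted p = 0.0141). For both genes every DSS-treated library lay below both water libraries. Irgm1, a regulator that restrains the other GTPases of the family, read 1443 and 1687, 891 and 447, and 890 and 400 in the 3 groups, and Ifi47 read 1119 and 1237, 778 and 436, and 616 and 418. Their values with DSS, -1.30 ± 0.33 and -1.01 ± 0.29, did not pass (adjusted p = 0.0523 and 0.0705). With montmorillonite the 2 genes were at -1.39 ± 0.42 and -1.21 ± 0.25 against water.

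The chemokines draw activated T cells through the receptor Cxcr3. Cxcl9, the more strictly gamma-dependent of them, read 352 and 273 in water, 69.7 and 51.3 with DSS and 79.1 and 85.4 with DSS plus montmorillonite. It fell 5.12-fold with DSS (-2.36 ± 0.28, adjusted p = 0.00904) and stood at -1.90 ± 0.27 with montmorillonite (adjusted p = 0.629). The DSS plus montmorillonite libraries were slightly above the DSS libraries without overlap (0.45 ± 0.39, adjusted p = 0.766). Cxcl10, which type I interferon also induces, read 126 and 102 in water, 171 and 64.2 with DSS and 73.4 and 43.6 with DSS plus montmorillonite, and did not pass in either comparison with water.

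Setting the type I leaning Ifit and Oas members (8 genes) beside the gamma leaning Gbp and Irgm members (8 genes), the median log2 fold change with DSS was -0.28 for the first and -0.77 for the second, a difference of 0.49. With DSS plus montmorillonite against water the medians were -0.46 and -0.78, a difference of 0.32, and between the DSS groups they were -0.29 and -0.04, a difference of -0.25. The SD of this difference between replicates was 0.54, 0.74 and 0.78 in the 3 comparisons, larger than the difference itself in each. None of the 8 Ifit and Oas members was separated from water without overlap in either comparison with water. In each, 6 of the 8 Gbp and Irgm members were lower without overlap. The shares of all genes lower without overlap were 28.5% with DSS and 19.2% with DSS plus montmorillonite. With the remaining members divided by their usual leaning (23 type I, 17 gamma), the medians with DSS were -0.37 and -1.07, and with DSS plus montmorillonite -0.47 and -1.21. In the wider lists 5 of 23 type I leaning and 14 of 17 gamma leaning members lay below water without overlap with DSS (28.5% of all genes), and 1 of 23 and 15 of 17 with DSS plus montmorillonite (19.2% of all genes). These are descriptions, since genes of a list share regulators and libraries.

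Library by library, the replicates of the Ifit and Oas members were further apart in the DSS groups than in water. Relative to the water mean, the Ifit and Oas median was -0.30 and 0.30 in water 1 and 2, 0.39 and -0.94 in DSS 1 and 2, and 0.52 and -1.36 in DSS plus montmorillonite 1 and 2. The Gbp and Irgm median was -0.05 and 0.05, -0.49 and -1.11, and -0.65 and -1.13. The first list minus the second was thus -0.25 and 0.25 for water, 0.88 and 0.17 for DSS, and 1.17 and -0.23 for DSS plus montmorillonite. In DSS plus montmorillonite the difference was thus positive in replicate 1 and negative in replicate 2; against water it became -0.23 without replicate 1, -0.02 without water 1 and 1.17 without DSS plus montmorillonite 2. With DSS it stayed above 0 whichever library was left out, from 0.17 to 0.88. Between the DSS groups it ran from -1.06 to 0.57. The immunity-related GTPases, with medians of -1.01 and -1.80 for DSS and of -1.28 and -1.96 for DSS plus montmorillonite, were lower than the water libraries throughout.

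**Figure D4:**
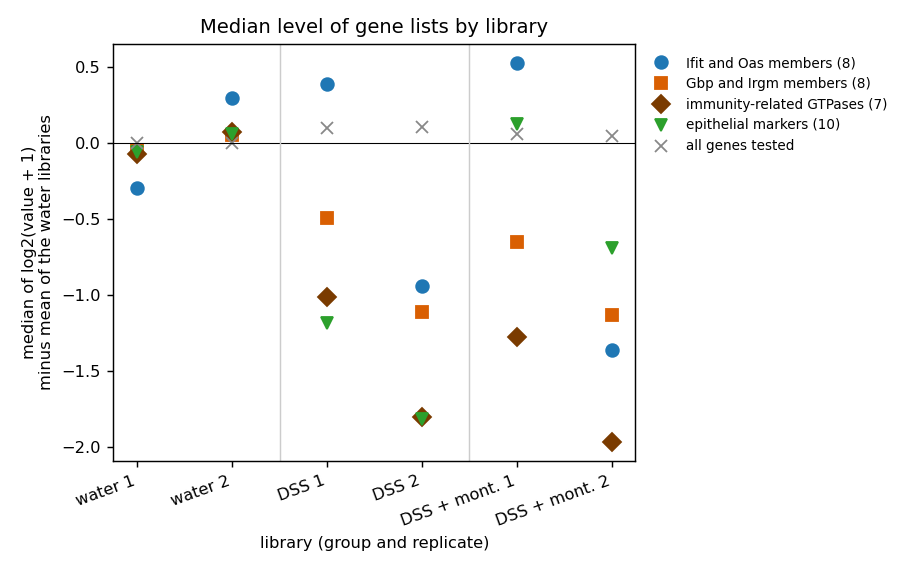
Median log2(value + 1) minus the water mean (vertical axis) of gene lists in each of the 6 libraries: Ifit and Oas members, Gbp and Irgm members, immunity-related GTPases, epithelial markers and all genes tested. The Ifit and Oas median is 0.39 and 0.52 in replicate 1 and -0.94 and -1.36 in replicate 2 of the DSS groups, while the GTPases stay between -1.01 and -1.96 in all 4.

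Replicate 1 exceeded replicate 2 in all 23 type I leaning members in DSS and again in all 23 with montmorillonite added, with median gaps of 1.23 and 1.56 on the log2(value + 1) scale. The gap was over 1 in 17 and in 20 of them, where 7.5% and 15.2% of all genes tested, and 3.5% and 9.0% of the 11362 genes within the range of the members' mean levels, had such a gap. In water the order was the other way, with replicate 1 above in 2 of 23 and a median gap of -0.60. Replicate 1 was thus over 1 higher in 0 of 23. The share was 9.15% of all genes and 1.13% of the genes within the range of the members' mean levels. With replicate 2 the higher, the water gap was beyond 1 in Ifit3 (-1.24), Usp18 (-1.12), Dhx58 (-1.11) and Isg15 (-1.05). Among the 17 gamma leaning members replicate 1 exceeded replicate 2 in 16 for DSS and 12 for DSS plus montmorillonite, with median gaps of 0.47 and 0.74, and the gap was over 1 in 2 and 3. In 15 members, all type I leaning, DSS plus montmorillonite 1 was above both water libraries and DSS plus montmorillonite 2 below both, where 12.2% of all genes gave that order; in DSS the count was 6, where all genes gave 3.99%. Since a gene passes only when its change exceeds the spread between libraries, a member with a wider gap needed a larger change to pass.

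**Figure D5:**
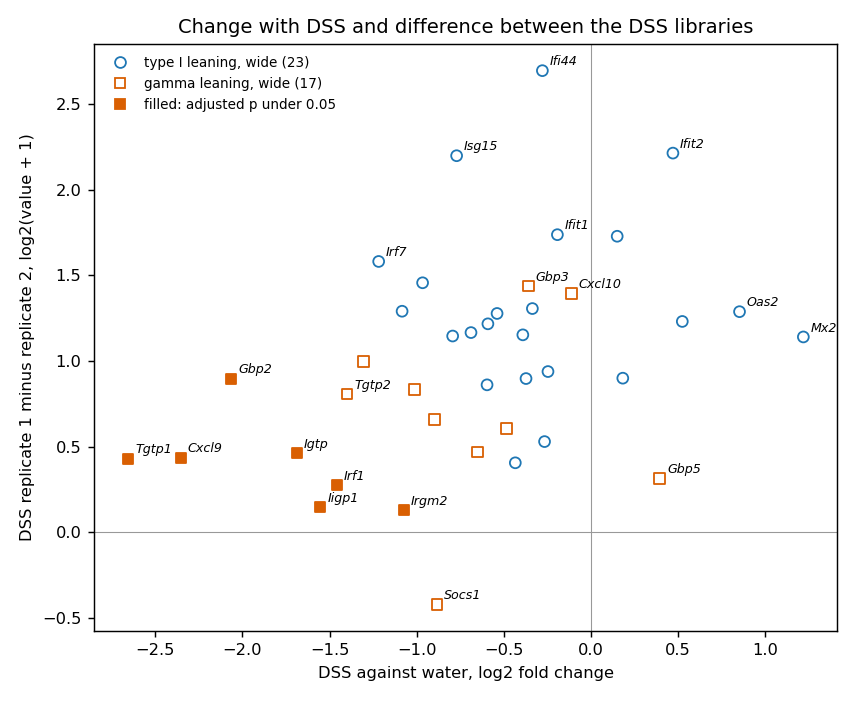
Log2 fold change with DSS (horizontal axis) against the difference between the 2 DSS libraries on the log2(value + 1) scale (vertical axis) for the 40 members; blue circles are type I leaning, orange squares gamma leaning, and filled symbols passed the test. The 7 members that passed lie at the lower left, with changes from -1.07 to -2.66 and gaps between the DSS libraries of 0.13 to 0.90; Ifi44, Isg15 and Ifit2 have the widest gaps.

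Other values moved with these results in the same libraries. Epithelial markers were at a median of -1.18 and -1.82 relative to water in DSS 1 and 2 (8 of 10 fell), close to the medians of the immunity-related GTPases there, but at 0.12 and -0.69 in DSS plus montmorillonite, where the GTPases were at -1.28 and -1.96. T and NK cell markers, the source cells of interferon gamma, summed to 676 and 580 in water, 760 and 681 with DSS and 319 and 812 with DSS plus montmorillonite, and with DSS 2 of 16 rose and 1 fell. Monocyte and macrophage markers rose with DSS in 8 of 12 and neutrophil markers in 7 of 10. For these marker counts the shares over all genes tested were 7.9% higher and 7.18% lower. Markers listed for plasmacytoid dendritic cells, which make much type I interferon, rose with DSS in 2 of 6 (Ly6d and Runx2, both also expressed by other cells). They summed to 114 and 107 in water, 585 and 1549 for DSS, and 150 and 759 for DSS plus montmorillonite. The defining marker Siglech was at or below 8.7 in every library. The replicate 2 libraries of the DSS groups, low in type I leaning members, were also those with the most squamous markers. In water 1 and 2 squamous markers summed to 56 and 507, while the type I leaning median was -0.30 and 0.30. Skeletal muscle markers summed to 775 and 343 in water, 124 and 3524 with DSS and 4434 and 205 with DSS plus montmorillonite. Smooth muscle markers summed to 27986 and 47536, 15051 and 27197, and 53990 and 20685 in the same order. In tissue RNA fewer cells of a type and less RNA per cell cannot be told apart, and the part of these markers in the results on the members was not tested.

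The interferons and their receptors were measured in part. Ifng, the gamma interferon gene, read 10.6 and 11.4 in water, 2.68 and 1.44 with DSS and 2.88 and 0 with DSS plus montmorillonite. All 4 DSS-treated libraries were below water, on 0 to 11 reads a library over the 6, and the change with DSS, a fitted 3.99-fold decrease with a 95% interval of -3.47 to -0.52 on the log2 scale, did not pass (adjusted p = 0.0788). Of the 12 interferon genes listed, Ifng was the 1 found among the genes measured. Ifnb1 and the others were not among them, so their RNA could not be assessed. Of 9 receptors and kinases, Ifngr2, the signalling chain of the gamma receptor, fell with DSS (2182 and 1990 in water, 1216 and 899 with DSS, 2333 and 1544 with DSS plus montmorillonite; -0.99 ± 0.20, adjusted p = 0.028), and Ifnar2 of the type I receptor rose (121 and 143, 322 and 411, 125 and 456; 1.46 ± 0.24, adjusted p = 0.0168). Ifngr1 (-0.62 ± 0.16, adjusted p = 0.0568) and Ifnar1 (0.52 ± 0.17, adjusted p = 0.0948) had the same signs as their partners and did not pass. Across all genes tested 7.9% rose with DSS and 7.18% fell.

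Upstream of interferon gamma, 1 of 12 inducers rose with DSS, the interleukin 18 receptor chain Il18rap (2.42 ± 0.44), and 1 fell, the cytokine Il15 that sustains NK cells (213 and 255 in water, 83.8 and 44.1 in DSS; -1.92 ± 0.37). For this list and the others of this paragraph, all genes tested gave 7.9% higher and 7.18% lower. Of 11 other transcription factors of the pathway, 2 rose, Irf4 and Irf5, and 2 fell, among them Batf2, a gamma-induced factor. Batf2 read 666 and 682 in water, 211 and 112 with DSS and 463 and 187 with DSS plus montmorillonite (-2.13 ± 0.32, adjusted p = 0.0146). Of 12 other sensors and adaptors, 3 rose, Tmem173 (Sting, 1.90 ± 0.20), Myd88 and Traf3, and Ticam1 (Trif) fell. Of 7 other inhibitors, 2 rose and none fell: Ptpn6, and Socs3, which answers mainly to interleukin 6 family cytokines (114 and 150 in water, 1258 and 3356 with DSS, 246 and 2589 with DSS plus montmorillonite; 3.96 ± 0.46, adjusted p = 0.00861).

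Some interferon-stimulated genes outside the 40 had the opposite direction. Of 41 other interferon-stimulated genes, 7 rose with DSS, 3 Ifitm genes and 4 members of the Ifi200 cluster, and 1 fell, the peptide transporter Tap1 (-1.22 ± 0.20). Beside the counts of this paragraph, 7.9% of all genes tested rose with DSS and 7.18% fell. Ifitm1, whose protein hinders viral entry, read 147 and 193 in water, 2368 and 2768 with DSS and 256 and 2480 with DSS plus montmorillonite (3.92 ± 0.21, adjusted p = 0.00217). Ifitm3 (2.43 ± 0.28), Ifi204 (2.48 ± 0.27) and Ifi209 (2.45 ± 0.38) had smaller increases. In DSS plus montmorillonite 1 the Ifitm1 value was nearer to water than to DSS, and in replicate 2 it was near DSS. Of 18 other GTPases and gamma targets, 5 fell with DSS: Gbp2b (128 and 72.8 in water, 9.38 and 3.36 with DSS, 38.8 and 10.9 with DSS plus montmorillonite; -3.86 ± 0.61), Gm12185 (-3.01 ± 0.53), Gm4951 (-2.04 ± 0.36), Cd274, which encodes the ligand PD-L1, and Wars. Gm12185 overlaps exons of Tgtp1, so their counts are uncertain. In the same list 4 rose, Nos2 (3.71 ± 0.22), Serpina3g, Cybb and Icam1, genes that bacterial products and other cytokines also induce. No gene of these lists passed in either comparison of DSS plus montmorillonite, in which limma called no gene at all (1576 unadjusted p below 0.05 against water and 1444 against DSS).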

How the data were processed

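RNA-seq of mouse distal colon was available as 1 table of 20533 genes and 6 libraries. The deposited signal of a gene was its number of reads over a size factor: 100% of values were whole multiples of a single read's worth (within 0.01 read), and the divisors equalled DESeq2's median-of-ratios factors. Reads were mapped to mm10 (GRCm38), per the submitters' processing notes; no source used here names the aligner or counting tool. Symbols came from GENCODE M21 (20500 identifiers found), promoter sequences from RefSeq.

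Each comparison was fitted on its own 4 libraries with limma 3.58.1 (R 4.3.3) and an intensity trend on log2(value + 1), two-sided, on the 20307 genes whose mean value reached 1 (226 did not), with Benjamini-Hochberg adjustment over all of them and a threshold of 0.05. Fold changes are on that scale. An exact permutation test of 2 against 2 could not go below 0.333. Alternatives were edgeR 4.0.16 and DESeq2 1.42.0 on the recovered reads, a fit of all 6 libraries, pseudocounts of 0.5 and 4, no filter, a mean of at least 10, library size scaling, a replicate block, and leaving out each library. The members, lists, fits and alternatives were chosen with earlier results of these data known. All members were named; of the pathway lists, up to 4 that passed and 6 genes in any case, and others were named after their values were seen. Some genes that this rule takes are not reported here. Shared sequence is the share of a gene's 50-base stretches that occur in another gene.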

Additional observations from a re-analysis of the deposited data

How the results depend on the processing

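With DSS against water, where 7 members passed, 0 passed with all 6 libraries in 1 fit by limma, 0 in the same fit by edgeR (chosen after seeing the data), and 0 when any library was left out; over all genes the latter gave 240 higher and 48 lower without water 1, 253 and 64 without water 2, and 0 without DSS 1 or DSS 2. The other fits without a replicate block gave 7 to 10 members, all gamma leaning. DESeq2 called 2148 genes higher and 1897 lower on 4 libraries and 1275 and 1101 on 6, limma and edgeR on 6 libraries called 0, and library size scaling, which moved the median of all genes from 0.10 to 0.33, called 2198 and 893, against 1605 and 1459. The 7 genes passed in every fit of the 4 libraries and in none of the left-out fits; with DESeq2 on 6 libraries Irgm2 was lost. With DSS plus montmorillonite against water DESeq2 called 5 members lower on 4 libraries and 5 on 6, and the others 0. Against DSS every fit gave 0.

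Replicate numbers mark no shared animal or batch in the labels, and deviations of same-numbered libraries correlated at 0.20, 0.16 and 0.41 in the 3 comparisons over 13914 genes; with the replicate block 14 members passed with DSS, all lower, and 0 in the other comparisons. Over all genes the block gave 2724 higher and 2360 lower with DSS. The 14 included the type I leaning Irf7, Zbp1 and Ifih1 (limma, adjusted p = 0.0154, 0.0106 and 0.0412).

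Members below water without overlap with DSS numbered 19 to 35 with a library left out (29 without water 1, 35 without DSS 1), where the share of all genes was 35.7% to 38.2%, and 15 with library size scaling (19.7% of all genes). With DSS plus montmorillonite they numbered 16 to 37 (37 without its replicate 1), where all genes gave 28.2% to 38.8%. Members lower than with DSS alone numbered 1 to 25 (16 without DSS 2, 25 without DSS plus montmorillonite 1, 4 without DSS plus montmorillonite 2), where all genes gave 31.2% to 42.9%, and 4 with library size scaling (33.1%). These counts can only grow when a library is dropped. The difference between the Ifit and Oas and the Gbp and Irgm medians ranged from 0.17 to 0.88 with DSS, from -0.23 to 1.17 with DSS plus montmorillonite, where it reversed to -0.23 without its replicate 1 and to -0.02 without water 1, and from -1.06 to 0.57 between the DSS groups, where it reversed to 0.14 without DSS 1 and to 0.57 without DSS plus montmorillonite 2. The wide lists gave 0.70, 0.74 and -0.03. The counts without overlap under a left-out library or another scaling, and the count tests on 6 libraries, were added after seeing the data. Why the fits of 4 and 6 libraries differ was not tested. Depth limited Ifng, with 0 to 11 reads a library.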
